A study of Mus musculus with 24 samples.

Results

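The 10 genes described here encode the enzymes that make serine, asparagine and proline and that run mitochondrial one-carbon metabolism: Phgdh, Psat1, Psph, Shmt1, Shmt2, Mthfd2, Mthfd1l, Aldh1l2, Pycr1 and Asns. They were chosen by name, and every probe whose transcript maps to one of these symbols was taken, which gave 16 of the 56605 probes on the array and 10 of the 23787 genes with a symbol. All 16 probes were read as well above background on all 24 arrays, and all 16 were among the 37684 probes tested. Psat1, Shmt1, Shmt2, Mthfd2, Aldh1l2 and Asns have 2 probes each and are counted by the brighter one, while the other genes have 1. Expression was measured in TM3 cells, a mouse Leydig cell line, after a nanosecond pulsed electric field (nsPEF) or a sham treatment without pulses. The exposure comprised 80 pulses of 60 ns at 14 kV/cm, given at 26.4 pulses per minute to suspended cells in a cuvette. Cells of both arms were detached, washed, brought into the same buffer and kept in cuvettes, so the sham groups also carry the handling. The study proposes that this long preparation stressed the cells at 0 h, and describes the harvest at 4 h and 24 h as quick. A difference from 0 h therefore holds this change of handling as well as time, and their parts were not tested. The 6 groups are the sham cells at 0 h, 4 h and 24 h (S0, S4 and S24) and the nsPEF-exposed cells at the same times (E0, E4 and E24), with 4 biological replicates in each and 1 array per replicate.

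Serine is built from a glycolytic intermediate in 3 steps catalysed by Phgdh, Psat1 and Psph, and serine hydroxymethyltransferases pass its side-chain carbon to folate. In mitochondria this carbon is oxidised and released as formate or carbon dioxide, and formate feeds purine and thymidylate synthesis in growing cells. Asns makes asparagine and Pycr1 makes proline, and many genes of this group are known targets of the transcription factor ATF4, which acts through C/EBP-ATF response elements when amino acids run short or the endoplasmic reticulum is stressed.

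The promoters were searched for the letters of such elements, and 9 of the 10 genes have a sequence in the RefSeq promoter table (build GRCm38.p6). The search covered 250 bases before and 50 bases after the transcription start, on both strands, for TGATGNAA (the C/EBP-ATF response element core), TGACGTCA (the cAMP response element), TGACNNNGC (the antioxidant response element core) and CACGTG (the E-box). TGATGNAA was found in 2 of the 9 genes, Asns and Pycr1, and in 3.97% of all 32851 promoters of the same length. TGACNNNGC was found in Asns, Phgdh and Psph, against 12.4% of all promoters; in Asns it lies at -172 to -164, before the stretch shown. Neither TGACGTCA, present in 1.79% of all promoters, nor CACGTG, present in 7.15%, was in a window of the 9 genes. The 150 bases before the start are shown for Asns and Pycr1, which hold the C/EBP-ATF letters, for Phgdh, and for Shmt1 and Mthfd2, which rose most at 4 h and hold none of the 4 motifs. They are given 5′ to 3′ on the strand of the gene, here the minus strand, with motif matches in capitals.
Asns, chr6:7693210-7693359: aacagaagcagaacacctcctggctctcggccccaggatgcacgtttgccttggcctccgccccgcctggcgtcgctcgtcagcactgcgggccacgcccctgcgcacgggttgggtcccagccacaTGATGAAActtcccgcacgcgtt
Pycr1, chr11:120643749-120643898: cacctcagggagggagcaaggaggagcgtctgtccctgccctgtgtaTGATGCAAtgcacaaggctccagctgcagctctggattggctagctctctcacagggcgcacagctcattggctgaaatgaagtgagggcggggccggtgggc
Phgdh, chr3:98339970-98340119: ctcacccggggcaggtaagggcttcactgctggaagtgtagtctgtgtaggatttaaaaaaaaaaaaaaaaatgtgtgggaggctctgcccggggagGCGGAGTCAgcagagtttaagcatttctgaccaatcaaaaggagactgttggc
Shmt1, chr11:60811266-60811415: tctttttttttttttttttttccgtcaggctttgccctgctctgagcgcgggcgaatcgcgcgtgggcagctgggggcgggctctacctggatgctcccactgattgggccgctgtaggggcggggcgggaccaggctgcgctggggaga
Mthfd2, chr6:83317605-83317754: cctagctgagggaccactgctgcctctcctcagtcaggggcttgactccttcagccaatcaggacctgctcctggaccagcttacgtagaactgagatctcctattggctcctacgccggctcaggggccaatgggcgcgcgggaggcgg
In Asns the C/EBP-ATF letters span positions -23 to -16 before the start, and in Pycr1 they span -103 to -96. The capitals in Phgdh mark TGACNNNGC on the opposite strand at -53 to -45. A match describes the letters of the window and does not show that a factor binds there.

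Levels are log2 intensities after the 75th percentile of the same array was subtracted, so a value of 0 is the level of that percentile and a difference of 1 is a doubling relative to it. They are comparable between arrays for 1 probe, not between probes. Changes were tested with limma across all tested probes, and a probe is called where its Benjamini-Hochberg adjusted p was under 0.05. The 75th percentile intensity ranged from 201.8 to 532.7 over the arrays, with the brightest array S4 replicate 4, and the share of probes well above background ranged from 51.62% to 62.24%. Within each time point that share was lower on every nsPEF array than on every sham array, and its part in the comparisons was not tested. Each time point occupied its own slide with 8 arrays, which leaves time and slide inseparable, and sham and nsPEF arrays took different positions on it, so treatment and position cannot be told apart either. In RNA from whole cultures, fewer cells of a kind and less RNA per cell cannot be told apart. Of the 9 Leydig cell markers on the array, Star, Cyp17a1, Nr5a1 and Gata4 passed the detection rule, Hsd3b1 was well above background on 1 array, and Cyp11a1, Hsd3b6, Hsd17b3 and Lhcgr on 0, so the steroid enzyme set of a Leydig cell was present only in part. The detection rule was also passed by 4 of 6 Sertoli cell, 4 of 4 peritubular myoid, 2 of 4 macrophage, 1 of 4 endothelial and 3 of 4 germ cell markers, while Dhh, Cdh5 and Tek were well above background on 0 arrays. Some of these moved with time in sham cells, and the 4 detected Sertoli markers did not share a course. At 0 h, 4 h and 24 h Sox9 had mean levels of -0.12, -1.33 and -2.94, and Wt1 of 5.07, 4.29 and 4.86. Rhox5 had -1.45, -1.44 and -2.46, and Inha -2.23, -3.42 and -1.85. The macrophage marker Csf1r had 0.50, 2.15 and -0.03, and Cd68 had 0.83, -0.08 and -0.34. The other macrophage markers, Adgre1 and Ptprc, were well above background on 1 array each. Of the peritubular myoid markers, Acta2 had 5.00, 5.72 and 4.85, and Cnn1 had -1.70, -0.36 and -2.63. Myh11 had -4.59, -4.47 and -4.69, and Des had -3.67, -4.26 and -4.00. The part of such markers in the time differences was not tested.

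The genes differed between the time points, each on its own slide, and they did not move as a block. All 10 were called in the F test for time, against 80.2% of all tested probes. In sham cells at 4 h, Shmt1, Mthfd2, Psat1, Mthfd1l and Psph had risen and Aldh1l2 and Pycr1 had fallen, which makes 7 called genes of 10, against 59.1% of all tested probes (29.4% higher and 29.7% lower). At 24 h in sham cells, Pycr1, Aldh1l2, Asns and Psph were lower and Shmt1 and Mthfd1l higher than at 0 h, 6 called genes of 10, against 36.6% of all tested probes (16.9% higher and 19.7% lower). The median log2 difference of the 10 genes was 0.14 at 4 h and -0.14 at 24 h, beside -0.01 and -0.00 over all tested probes. Changes with time were frequent on the whole array, and the counts mark nothing particular to these genes.

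**Figure D1:**
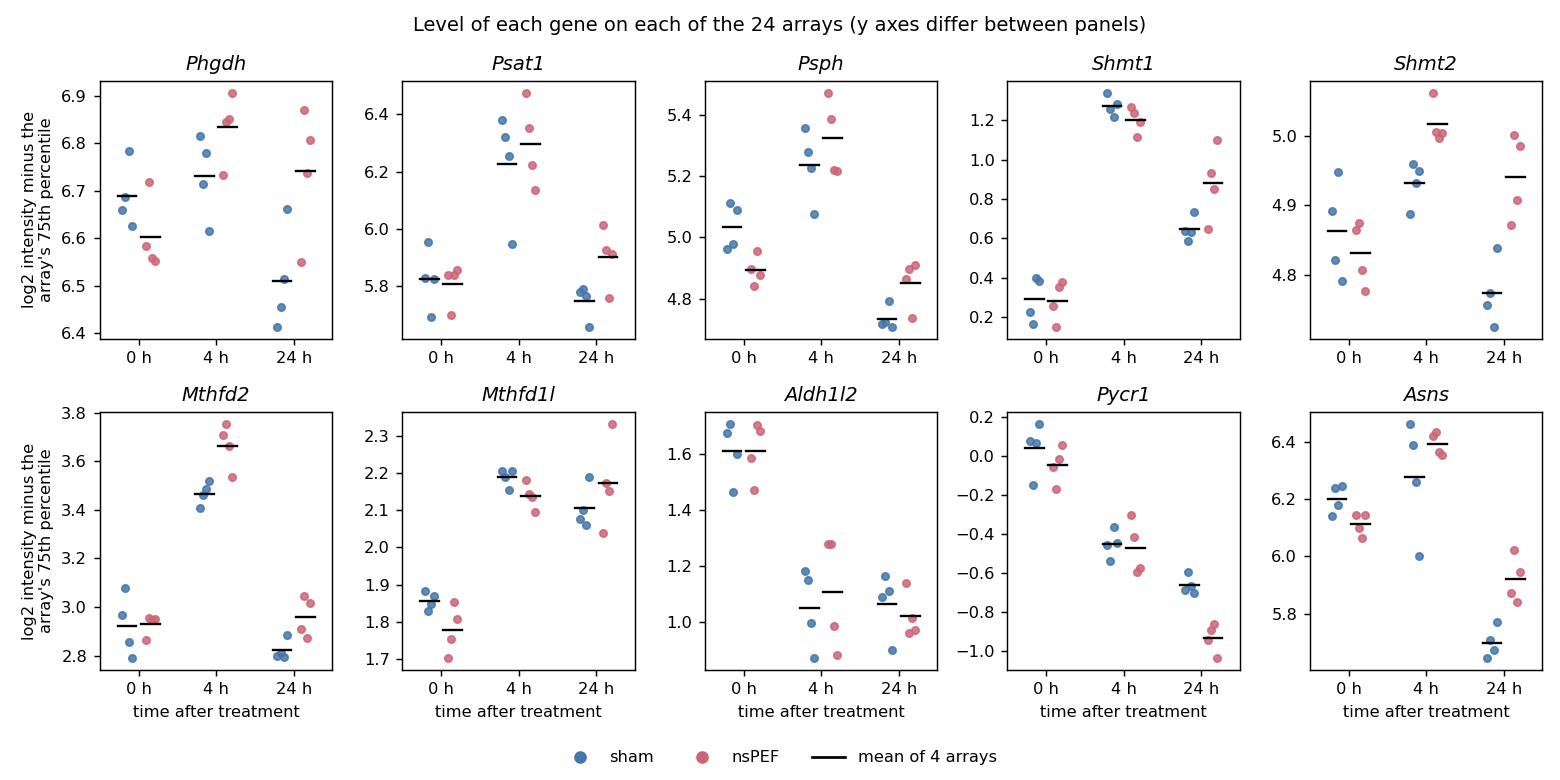
Each point is 1 of the 24 arrays, with sham in blue and nsPEF in red, and the black bars are means of 4 arrays; the y axes give the log2 intensity of the brighter probe minus the 75th percentile of the array and differ between panels. Shmt1, Mthfd2, Psat1 and Psph peak at 4 h in both arms, Mthfd1l stays up at 24 h, and Aldh1l2 and Pycr1 are lower at 4 h and 24 h than at 0 h.

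In serine synthesis, Psat1 and Psph rose at 4 h and were lower again at 24 h, and Phgdh varied over a narrow range. Psat1, the aminotransferase of the second step, had levels of 5.83, 5.96, 5.69 and 5.82 in S0, of 6.38, 6.32, 6.25 and 5.95 in S4, and of 5.78, 5.79, 5.77 and 5.66 in S24. In nsPEF-exposed cells its levels were 5.84, 5.70, 5.84 and 5.86 in E0, 6.47, 6.35, 6.22 and 6.13 in E4, and 6.01, 5.93, 5.76 and 5.91 in E24. The 4 h arrays stood above the 0 h arrays in both arms, except that S4 replicate 4 overlapped S0. Psat1 rose by 0.40 ± 0.09 (log2 difference ± SE, adjusted p = 0.000552) in sham cells at 4 h and by 0.49 ± 0.09 (adjusted p = 6.99e-05) in nsPEF-exposed cells. Between 4 h and 24 h it decreased by 0.48 and by 0.39 (adjusted p = 1e-04 and 0.000742). Its difference from 0 h at 24 h was -0.08 in sham cells (adjusted p = 0.541) and 0.10 in nsPEF-exposed cells (adjusted p = 0.403). The dimmer Psat1 probe rose by 0.66 in sham and 0.79 in nsPEF-exposed cells at 4 h (adjusted p = 1.32e-07 and 8.88e-09). At 24 h it was still 0.27 above 0 h in nsPEF-exposed cells, with every E24 array above every E0 array (adjusted p = 0.00585), and at -0.03 in sham cells (adjusted p = 0.769).

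Psph, the phosphatase that releases serine, had levels of 4.96, 5.11, 4.98 and 5.09 in S0, of 5.36, 5.28, 5.23 and 5.08 in S4, and of 4.72, 4.72, 4.79 and 4.71 in S24. In the nsPEF arm it had 4.90, 4.84, 4.96 and 4.88 in E0, 5.47, 5.39, 5.22 and 5.22 in E4, and 4.86, 4.90, 4.74 and 4.91 in E24. All S24 arrays lay below all S0 arrays, while S4 and S0 overlapped through S4 replicate 4. The sham rise at 4 h was 0.20 ± 0.07 (adjusted p = 0.0127), and it was no longer called under 5 other ways of processing, among them quantile normalization (0.04, adjusted p = 0.542), and without S4 replicate 1 (0.16, adjusted p = 0.0529). The nsPEF rise at 4 h was 0.43 ± 0.07 (adjusted p = 8.82e-06). At 24 h Psph fell by 0.30 below the 0 h level in sham cells (adjusted p = 0.00118), and the difference was -0.04 in nsPEF-exposed cells (adjusted p = 0.644).

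Phgdh, the dehydrogenase that opens the route, ranged only from 6.41 (S24 replicate 1) to 6.91 (E4 replicate 4) over all 24 arrays. Its sham levels were 6.66, 6.69, 6.78 and 6.63 in S0, 6.82, 6.71, 6.78 and 6.61 in S4, and 6.41, 6.46, 6.51 and 6.66 in S24. In nsPEF-exposed cells its levels were 6.58, 6.72, 6.56 and 6.55 in E0, 6.73, 6.84, 6.85 and 6.91 in E4, and 6.55, 6.87, 6.74 and 6.81 in E24. The sham groups overlapped, with 3 of the 4 S24 arrays below all S0 arrays, whereas E4 lay above E0 without overlap. Phgdh was not called in sham cells at 4 h (0.04, 95% interval -0.11 to 0.19) or at 24 h (-0.18, 95% interval -0.33 to -0.03, adjusted p = 0.0532). In nsPEF-exposed cells it was 0.23 higher at 4 h than at 0 h (adjusted p = 0.00781), a call that 3 of the other ways of processing lost.

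Shmt1, the cytosolic serine hydroxymethyltransferase, rose most of the 10 genes, whereas the mitochondrial Shmt2 moved over a narrow range. Shmt1 had levels of 0.23, 0.17, 0.40 and 0.39 in S0, of 1.34, 1.26, 1.22 and 1.28 in S4, and of 0.64, 0.59, 0.63 and 0.74 in S24. In nsPEF-exposed cells the levels were 0.26, 0.15, 0.35 and 0.38 in E0, 1.27, 1.24, 1.11 and 1.19 in E4, and 0.65, 0.93, 0.85 and 1.10 in E24. The 3 time points did not overlap in sham cells, with 4 h highest and 0 h lowest, and the same order without overlap was seen in nsPEF-exposed cells. At 4 h Shmt1 was 1.97-fold higher in sham cells (log2 difference 0.98 ± 0.08, adjusted p = 9.03e-10) and 1.89-fold higher in nsPEF-exposed cells (0.92 ± 0.08, adjusted p = 2.36e-09). At 24 h it remained above 0 h by 0.36 in sham cells (adjusted p = 0.00134) and by 0.60 in nsPEF-exposed cells (adjusted p = 4.71e-06).

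The dimmer Shmt1 probe gave the same rise at 4 h, 0.83 in sham cells (adjusted p = 1.7e-08), but only 0.04 at 24 h (adjusted p = 0.718), so the sham level at 24 h depends on the probe. On Shmt2, levels were 4.89, 4.82, 4.95 and 4.79 in S0, 4.89, 4.96, 4.93 and 4.95 in S4, and 4.76, 4.77, 4.72 and 4.84 in S24. With nsPEF they were 4.87, 4.88, 4.81 and 4.78 in E0, 5.06, 5.00, 5.00 and 5.00 in E4, and 4.87, 5.00, 4.91 and 4.99 in E24. Over the 24 arrays Shmt2 stayed between 4.72 and 5.06, and in sham cells both later time points overlapped 0 h. The sham differences from 0 h were 0.07 at 4 h (95% interval -0.02 to 0.16) and -0.09 at 24 h (95% interval -0.18 to 0.00), neither called. In nsPEF-exposed cells Shmt2 rose by 0.19 ± 0.04 at 4 h (adjusted p = 0.000984), with every E4 array above every E0 array, and this call was lost under 5 other ways of processing, among them quantile normalization (0.01, adjusted p = 0.894). The dimmer Shmt2 probe, which matches another transcript of the gene, was not called for time (adjusted p of the F test 0.769), and its arrays spread more, with SDs from 0.17 to 0.26 within groups. It shared little with the brighter probe over the 24 arrays (Pearson r = 0.12), while the 2 probes of each other gene had r from 0.82 to 0.93.

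The 3 genes of mitochondrial one-carbon metabolism took 3 different courses. Mthfd2, the dehydrogenase and cyclohydrolase that oxidises the folate-bound carbon, had levels of 2.97, 3.08, 2.86 and 2.79 in S0, of 3.41, 3.46, 3.48 and 3.52 in S4, and of 2.80, 2.81, 2.79 and 2.88 in S24. In nsPEF-exposed cells it had 2.87, 2.96, 2.95 and 2.95 in E0, 3.71, 3.75, 3.66 and 3.53 in E4, and 2.91, 3.05, 2.87 and 3.02 in E24. All 4 h arrays were above all arrays of 0 h and 24 h, and 0 h overlapped 24 h in both arms. Mthfd2 rose at 4 h by 0.54 ± 0.06 in sham cells (1.46-fold, adjusted p = 1.25e-07) and by 0.74 ± 0.06 in nsPEF-exposed cells (1.67-fold, adjusted p = 1.32e-09), and decreased from 4 h to 24 h by 0.65 and 0.71 (adjusted p = 1.31e-08 and 3.74e-09). The dimmer Mthfd2 probe rose by 0.28 in sham cells at 4 h (adjusted p = 0.0285), and lost this call with quantile normalization (0.16, adjusted p = 0.162), the percentile over probes detected on every array (0.17, adjusted p = 0.15) and spike-in scaling (0.32, adjusted p = 0.218), and without S0 replicate 3 or S4 replicate 1, 2 or 3.

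Mthfd1l, the mitochondrial formyl-folate synthetase that releases formate, rose at 4 h and did not come back. Its levels were 1.88, 1.83, 1.85 and 1.87 in S0, 2.21, 2.19, 2.16 and 2.21 in S4, and 2.08, 2.10, 2.06 and 2.19 in S24. Under nsPEF the levels were 1.70, 1.75, 1.85 and 1.81 in E0, 2.18, 2.14, 2.13 and 2.10 in E4, and 2.04, 2.17, 2.15 and 2.33 in E24. Every array at 4 h and 24 h was above every array at 0 h of the same arm. In sham cells the rise was 0.33 ± 0.05 at 4 h (adjusted p = 1.12e-05) and 0.25 ± 0.05 at 24 h (adjusted p = 0.000729), and in nsPEF-exposed cells 0.36 and 0.40 (adjusted p = 4.06e-06 and 4.32e-06). With spike-in scaling the sham rise at 4 h was 0.38 and not called (adjusted p = 0.0515).

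Aldh1l2, the mitochondrial formyl-folate dehydrogenase that yields carbon dioxide and NADPH, went the other way. It had levels of 1.68, 1.71, 1.46 and 1.60 in S0, of 1.19, 1.15, 1.00 and 0.87 in S4, and of 1.09, 1.16, 1.11 and 0.90 in S24. The nsPEF levels were 1.59, 1.47, 1.70 and 1.68 in E0, 1.28, 1.28, 0.99 and 0.88 in E4, and 1.14, 0.96, 1.02 and 0.97 in E24. No array at 4 h or 24 h reached an array at 0 h of its arm, and 4 h overlapped 24 h. Aldh1l2 fell by 0.56 ± 0.09 at 4 h and by 0.55 ± 0.09 at 24 h in sham cells (adjusted p = 3.12e-05 and 0.000126), and by 0.50 and 0.59 in nsPEF-exposed cells (adjusted p = 0.000101 and 4.94e-05). The dimmer Aldh1l2 probe, placed at the opposite end of the array, fell by 0.44 and 0.39 in sham cells (adjusted p = 6.37e-05 and 0.000517).

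**Figure D2:**
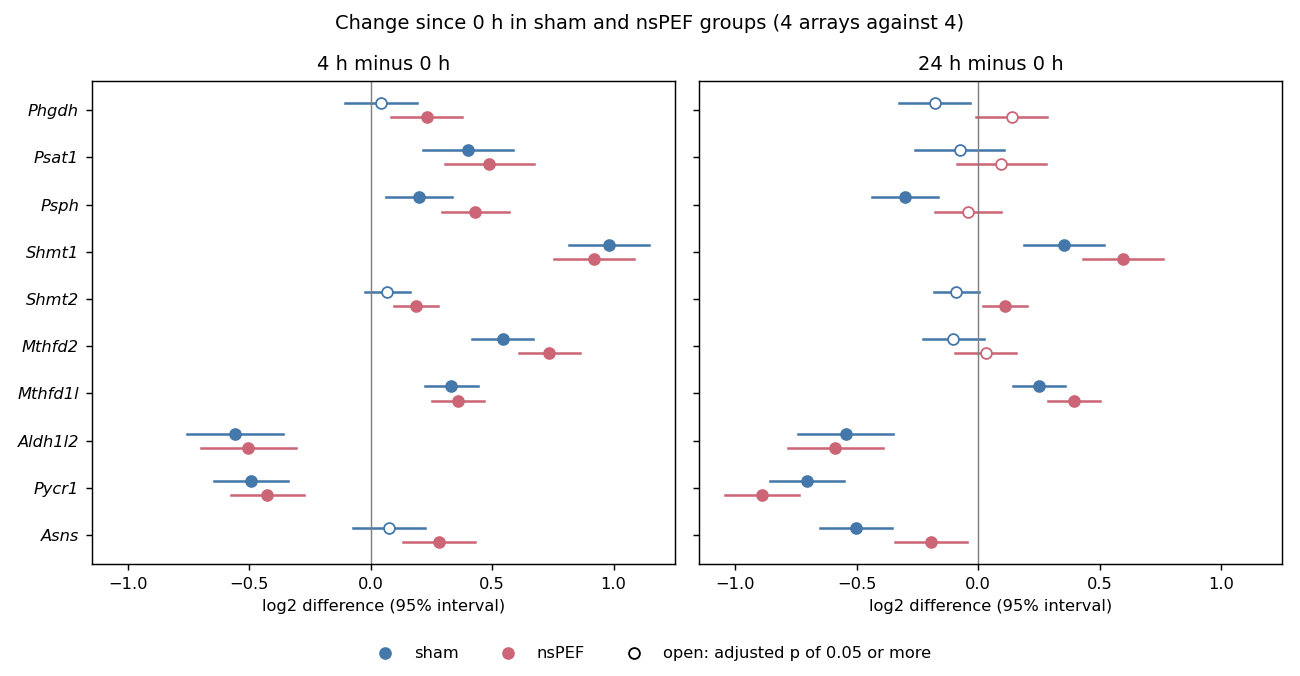
Points are log2 differences from 0 h in sham (blue) and nsPEF-exposed (red) cells at 4 h (left) and 24 h (right), lines are 95% intervals from limma, and open points were not called. At 4 h Shmt1 stands at 0.98 and 0.92 and Aldh1l2 at -0.56 and -0.50, and at 24 h Pycr1 stands lowest in both arms, at -0.71 and -0.89.

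Pycr1, the mitochondrial reductase that completes proline synthesis, had the largest fall of the 10 genes. Its sham levels were 0.08, -0.15, 0.07 and 0.17 in S0, -0.46, -0.54, -0.36 and -0.45 in S4, and -0.69, -0.60, -0.67 and -0.70 in S24. In the nsPEF arm they were -0.06, -0.17, -0.02 and 0.06 in E0, -0.30, -0.42, -0.59 and -0.57 in E4, and -0.94, -0.89, -0.86 and -1.04 in E24. The 3 time points did not overlap in either arm, and the order was 0 h, 4 h and 24 h from high to low. Pycr1 fell by 0.49 ± 0.07 at 4 h and by 0.71 ± 0.07 at 24 h in sham cells (adjusted p = 6.15e-06 and 2.53e-07). The falls in nsPEF-exposed cells were 0.43 ± 0.07 and 0.89 ± 0.07 on the log2 scale (adjusted p = 3.7e-05 and 8.65e-09), the latter 1.85-fold.

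Asns, the asparagine synthetase, was lower at 24 h than at 0 h, with little difference at 4 h in sham cells. Its sham levels were 6.14, 6.24, 6.18 and 6.24 in S0, 6.46, 6.39, 6.26 and 6.00 in S4, and 5.64, 5.71, 5.67 and 5.77 in S24. The levels of nsPEF-exposed cells were 6.14, 6.10, 6.06 and 6.14 in E0, 6.42, 6.43, 6.36 and 6.35 in E4, and 5.87, 6.02, 5.84 and 5.95 in E24. Within S4 the arrays spread from 6.00 to 6.46 around the S0 values, with the brightest array, S4 replicate 4, lowest, while E4 lay above E0 without overlap. The sham difference at 4 h was 0.08 (95% interval -0.07 to 0.23, adjusted p = 0.373), and without S4 replicate 4 it was 0.17 (adjusted p = 0.0114). The dimmer Asns probe was called at 4 h, with a difference of 0.18 (adjusted p = 0.0161), which it lost without S4 replicate 1 (0.14, adjusted p = 0.0612). It was also lost with quantile normalization (0.10, adjusted p = 0.14), spike-in scaling (0.23, adjusted p = 0.317), the percentile over probes detected on every array (0.07, adjusted p = 0.311) and centring by row and signal (0.07, adjusted p = 0.26). At 24 h Asns fell by 0.50 ± 0.07 in sham cells (adjusted p = 1.39e-05) and by 0.19 ± 0.07 in nsPEF-exposed cells (adjusted p = 0.0344). The latter call was lost without E0 replicate 1, 2 or 4 or E24 replicate 1 or 3, where the adjusted p ranged up to 0.0959.

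From 4 h to 24 h in sham cells, 8 of the 10 genes were called lower, against 29.9% of all tested probes, and only Mthfd1l (-0.08) and Aldh1l2 (0.01) were not called. With spike-in scaling none of the 8 was called lower, and Phgdh (0.39), Shmt2 (0.45) and Pycr1 (0.40) were called higher, as the median of all tested probes moved from 0.01 to 0.62. With the percentile taken over the probes detected on every array, Phgdh (-0.06), Shmt2 (-0.00) and Pycr1 (-0.06) lost this call. In nsPEF-exposed cells 6 genes were called lower over the same interval, against 29% of all tested probes. Between 0 h and 4 h all 10 genes were called in nsPEF-exposed cells, 8 higher and 2 lower, against 61.3% of all tested probes (33.5% higher and 27.8% lower). Between 0 h and 24 h 6 genes were called, against 42.2% of all tested probes (23.9% higher and 18.3% lower). The 3 higher were Shmt1, Mthfd1l and Shmt2 (0.11, adjusted p = 0.0484), and the 3 lower were Pycr1, Aldh1l2 and Asns. The Shmt2 call was lost under 8 of the other ways of processing.

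The 24 h differences were read against the 75th percentile of the arrays. When arrays were scaled on the spike-in RNA instead, the median of all tested probes moved from -0.00 to 0.66 for 24 h against 0 h in sham cells and from 0.06 to 0.50 in nsPEF-exposed cells. Every gene shifted by the same amount, so Asns in sham cells at 24 h became 0.16 higher than at 0 h (adjusted p = 0.411) and Pycr1 was at -0.05 (adjusted p = 0.814). Relative to the median of the array, the differences were as given above. By the study's methods the spike-in RNA was added to a set amount of total RNA, so neither scaling gives levels per cell. Whether the levels per cell fell at 24 h was not settled by these values. At 4 h spike-in scaling also removed calls. In sham cells these were Psat1 (0.45, adjusted p = 0.0672), Psph (0.25, adjusted p = 0.285) and Mthfd1l (0.38, adjusted p = 0.0515). In nsPEF-exposed cells they were Aldh1l2 (-0.45, adjusted p = 0.0575), Pycr1 (-0.37, adjusted p = 0.0734) and Asns (0.33, adjusted p = 0.113). Phgdh (0.28, adjusted p = 0.12) and Shmt2 (0.24, adjusted p = 0.208) were lost there too.

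**Figure D3:**
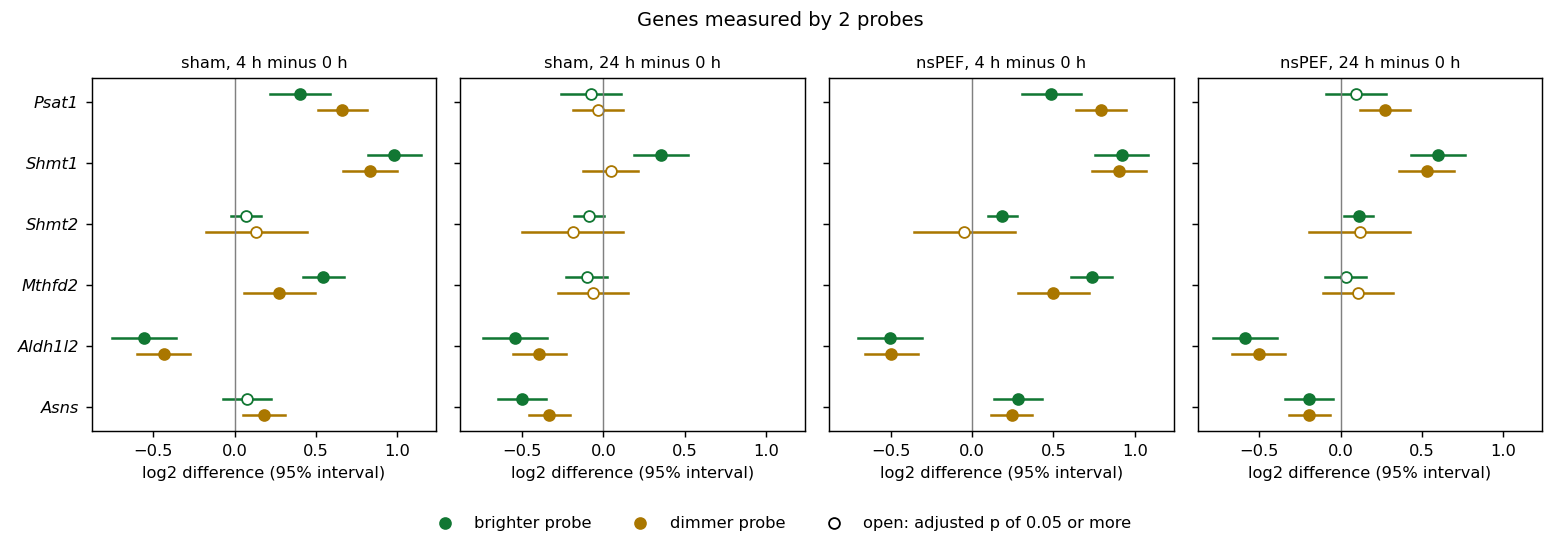
For the 6 genes with 2 probes, points are log2 differences from 0 h with 95% intervals from limma, by arm and time, and open points were not called. The probes of Aldh1l2, Asns, Mthfd2, Psat1 and Shmt1 lie on the same side of 0 wherever both were called, and the dimmer Shmt2 probe has the widest intervals.

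Fewer of these genes were called between nsPEF-exposed and sham cells than between time points. Time is inseparable from slide and treatment from array position, so this does not rank the effects of time and exposure. Immediately after exposure 0 of the 10 genes were called by limma, against 0.127% of all tested probes, and 1 had an unadjusted p under 0.05, against 10% of all tested probes. That gene was Psph, at -0.14 (adjusted p = 0.47), with all E0 arrays below all S0 arrays. At 4 h again 0 of 10 were called, against 3.31% of all tested probes, and 1 had an unadjusted p under 0.05, against 21% of all tested probes. This was Mthfd2, for which all E4 arrays lay above all S4 arrays, as they also did for Shmt2 (0.09, adjusted p = 0.269). The dimmer Shmt2 probe was at -0.28 (adjusted p = 0.275), with overlapping arrays. The Mthfd2 difference was 0.20 (95% interval 0.07 to 0.32, adjusted p = 0.0727), and it was called under 4 of 15 other ways of processing and without E4 replicate 4 (0.24, adjusted p = 0.0467). The dimmer Mthfd2 probe differed by 0.12 (adjusted p = 0.528), with overlapping arrays. For the other 9 genes the difference at 4 h lay between -0.07 (Shmt1) and 0.12 (Asns).

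At 24 h 2 of the 10 genes were called, against 4.82% of all tested probes, and 6 had an unadjusted p under 0.05, against 22% of all tested probes. Shmt2 was higher in nsPEF-exposed cells by 0.17 ± 0.04 (95% interval 0.08 to 0.26, adjusted p = 0.0335), and every E24 array was above every S24 array. Pycr1 was lower by 0.27 ± 0.07 (95% interval -0.42 to -0.12, adjusted p = 0.0384), also without overlap. Both calls are close to the threshold: they were absent when only the arrays of 24 h were fitted (adjusted p = 0.157 for Shmt2 and 0.0849 for Pycr1), and neither was kept without S24 replicate 1, 2 or 3 or without E24 replicate 2 or 4. The Shmt2 call was also lost with quantile normalization, spike-in scaling, normexp, marked spots kept, gene means and the deposited log2 values. There its adjusted p ranged from 0.0614 to 0.916. Pycr1 also lost its call with spike-in scaling, normexp and centring by row and signal, with adjusted p from 0.115 to 0.453. The dimmer Shmt2 probe differed by 0.20 (adjusted p = 0.435), with overlapping arrays. Asns was 0.22 higher, with E24 above S24 on every array, but was not called (adjusted p = 0.0766). The other genes with an unadjusted p under 0.05 were Phgdh (0.23, adjusted p = 0.0623), Shmt1 (0.23, adjusted p = 0.0874) and Mthfd2 (0.14, adjusted p = 0.183), whose arrays overlapped between the arms. The dimmer Shmt1 probe was called at 24 h (0.29, adjusted p = 0.0427), and lost the call under 6 other ways of processing, among them quantile normalization (0.22, adjusted p = 0.101), and without S24 replicate 1, 2 or 3 or any of E24 replicates 1, 2 and 4. The median difference of the 10 genes was 0.15, with 8 of 10 above 0, beside a median of 0.02 over all tested probes.

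**Figure D4:**
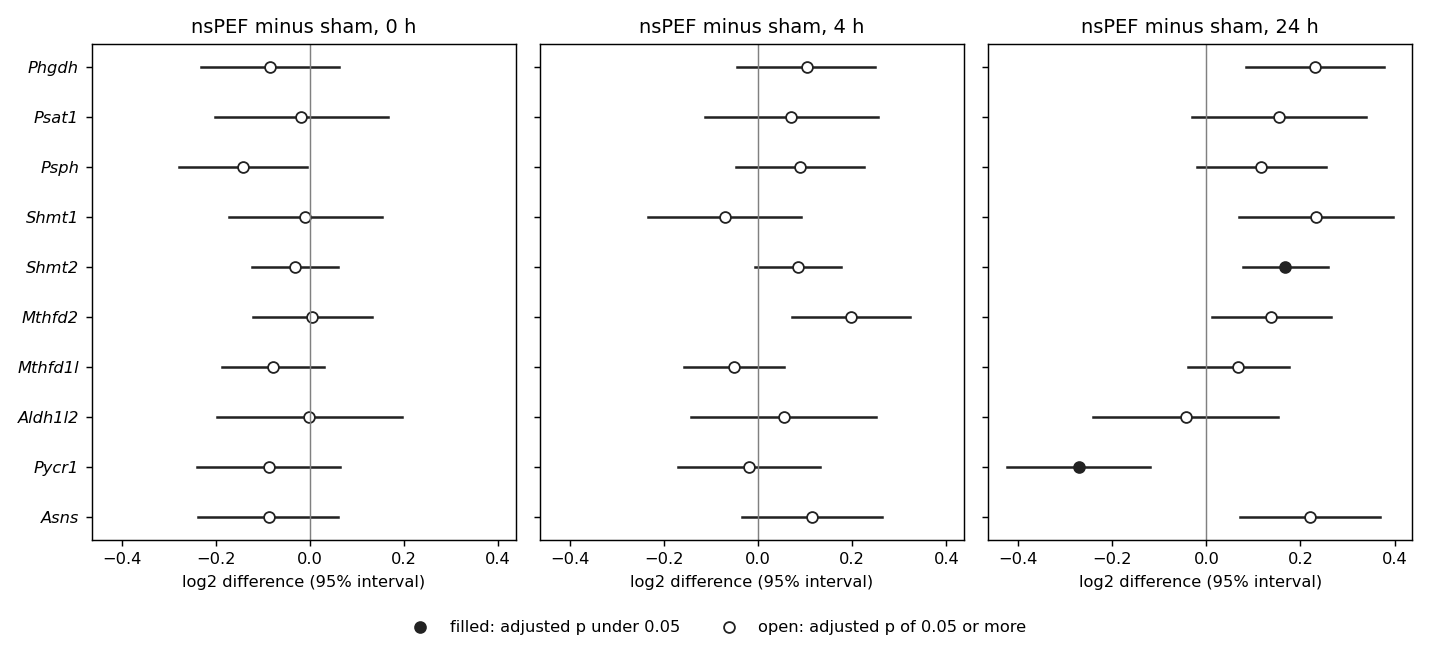
Points are log2 differences of nsPEF-exposed minus sham cells at 0 h, 4 h and 24 h (4 arrays against 4), with 95% intervals from limma, and filled points were called. Most intervals cross 0 at 0 h and 4 h, and at 24 h Shmt2 (0.17) and Pycr1 (-0.27) are the filled points.

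Averaged over the 3 times, Mthfd2 was 0.11 higher in nsPEF-exposed cells (95% interval 0.04 to 0.19, adjusted p = 0.0468), and it was the single gene called of 10, against 8.84% of all tested probes. The call was lost without most of the single arrays, and the number of genes called for this average then ranged from 0 to 2. The Mthfd2 call was also lost with spike-in scaling, the stricter filter, marked spots kept, centring by row and signal, gene means and the deposited log2 values. There its adjusted p ranged from 0.0516 to 0.534. The dimmer Mthfd2 probe differed by 0.03 (adjusted p = 0.805). Whether the time course differed between the arms was tested as an interaction. The change from 0 h to 4 h differed for 0 of 10 genes, against 0.0345% of all tested probes, and 2 genes, Psph (0.23) and Mthfd2 (0.19), had an unadjusted p under 0.05, against 9.33% of all tested probes. The change from 0 h to 24 h differed for 0 of 10, against 0.353% of all tested probes, with 5 at an unadjusted p under 0.05, against 16.7% of all tested probes. These 5 were Phgdh (0.32, adjusted p = 0.131), Asns (0.31, adjusted p = 0.144), Psph (0.26, adjusted p = 0.177), Shmt1 (0.24, adjusted p = 0.278) and Shmt2 (0.20, adjusted p = 0.126), each higher in the nsPEF arm. The change from 4 h to 24 h differed for 0 of 10, against 0.448% of all tested probes, with 2 at an unadjusted p under 0.05, Shmt1 (0.31) and Pycr1 (-0.25), against 14.6% of all tested probes. The joint F test for interaction called 0 of 10, against 0.377% of all tested probes, with 5 at an unadjusted p under 0.05, against 16.7% of all tested probes. Without E24 replicate 1, Phgdh (0.38, adjusted p = 0.0285) and Shmt2 (0.22, adjusted p = 0.0483) were called for the change from 0 h to 24 h and Shmt1 (0.38, adjusted p = 0.0435) for that from 4 h to 24 h. With all arrays, the smaller fall of Asns at 24 h after nsPEF (0.19 against 0.50) is not a called difference between the arms. On the dimmer Asns probe the falls were closer, 0.19 against 0.33, and the difference between the arms was 0.14 (adjusted p = 0.43).

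Some of these genes varied together over the 24 arrays, which share slides by time point, so these values describe the time course and carry no p. Pearson r over the arrays was 0.91 for Psph and Asns, 0.91 for Psat1 and Psph, 0.89 for Psat1 and Mthfd2, 0.88 for Shmt1 and Mthfd1l and 0.84 for Aldh1l2 and Pycr1. Mthfd1l and Aldh1l2 ran opposite to each other, with r = -0.85. Among 12614 other genes with a symbol that were well above background on every array, the 5 closest to Asns were Dynll1 (r = 0.95), Chmp4b (0.94), Plp2 (0.94), Rack1 (0.94) and Sf3b3 (0.93). For the other members the closest was Gm5766 for Phgdh (r = 0.93), Pomp for Psat1 (0.97), Eif1 for Psph (0.96), Larp1 for Shmt1 (0.98), Tulp1 for Shmt2 (0.92), Arl14ep for Mthfd2 (0.98), Twist2 for Mthfd1l (0.96), Crls1 for Aldh1l2 (0.97) and C1rb for Pycr1 (0.97).

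Neighbouring genes of the pathways were taken from a list of 81, of which 76 had a tested probe. In sham cells at 4 h, 26 of the 76 were called higher and 32 lower, against 29.4% and 29.7% of all tested probes. At 24 h 13 were called higher and 25 lower, against 16.9% and 19.7% of all tested probes. The largest rises at 4 h were those of Slc19a1, which brings reduced folate into the cell (2.00 ± 0.07, 4.00-fold, adjusted p = 1.65e-15), and Slc25a32, which carries folate into mitochondria (1.98 ± 0.09, 3.95-fold, adjusted p = 1.31e-13). Slc46a1, the proton-coupled folate carrier, fell by 0.33 ± 0.08 (adjusted p = 0.00134). The largest falls at 4 h were those of Sds, serine dehydratase (-2.03 ± 0.34, adjusted p = 2.75e-05), and Srr, serine racemase (-1.18 ± 0.09, adjusted p = 3.68e-10), both of which use serine. At 24 h Cbs, which joins serine to homocysteine, was 0.76 higher (adjusted p = 0.0299). P4ha3, a collagen prolyl hydroxylase subunit, fell by 0.98 (adjusted p = 1.74e-05) and Srr by 0.92 (adjusted p = 1.04e-07) at 24 h.

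The counts by role stand against the same shares of all tested probes, 29.4% higher and 29.7% lower after 4 h, then 16.9% and 19.7% after 24 h, and in lists this small nothing particular is read from them. The folate cycle and its carriers had 6 of 15 genes higher and 7 lower in sham cells at 4 h, then 3 higher and 1 lower at 24 h. Purine steps around formyl-folate had 2 of 6 higher and 1 lower at 4 h, and 1 higher at 24 h, and the glycine cleavage system had 3 of 4 higher at 4 h and 2 at 24 h. Among genes of serine use and breakdown 1 of 12 was higher and 8 were lower at 4 h, and at 24 h these numbers were 1 and 5. The methionine cycle had 2 of 5 higher and 1 lower at both times, and proline and ornithine metabolism 4 of 10 higher and 4 lower at 4 h (2 and 4 at 24 h). For asparagine, aspartate, glutamate and alanine 3 of 13 were higher and 8 lower at 4 h (2 and 7 at 24 h).

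Of 11 transcription factors and stress genes known to act on the 10 genes or to share their ATF4 response, 5 rose and 3 fell in sham cells by 4 h, and 0 rose and 7 fell by 24 h, against 29.4% and 29.7% of all tested probes at the earlier time and 16.9% and 19.7% at the later one. At 4 h Myc rose by 0.96 ± 0.06, Mycn by 0.59, Atf5 by 0.49, Nfe2l2 by 0.41 and Cebpg by 0.24, while Trp53, Ddit3 and Trib3 fell. Atf4 itself was at -0.11 (adjusted p = 0.412) at 4 h and fell by 0.65 ± 0.11 (adjusted p = 0.000121) at 24 h. Trib3 and Ddit3, both induced by ATF4 under stress, fell by 0.89 and 0.68 at 24 h (adjusted p = 9.62e-08 and 3.35e-08). These are transcript levels and say nothing of the proteins.

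**Figure D5:**
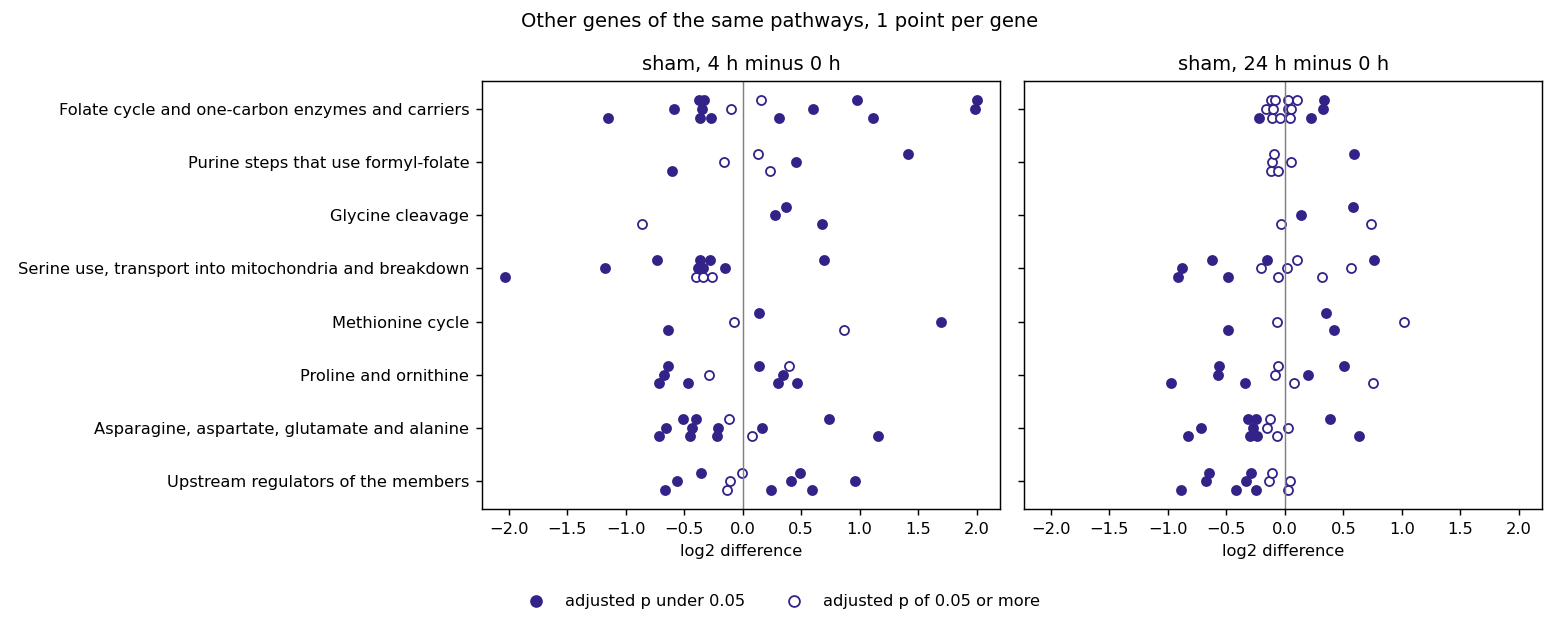
Each point is 1 of the 76 other pathway genes, by list, as the log2 difference from 0 h in sham cells at 4 h (left) and 24 h (right), and filled points were called. At 4 h the carriers Slc19a1 (2.00) and Slc25a32 (1.98) lie farthest to the right and Sds (-2.03) farthest to the left, and at 24 h no regulator was called higher.

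Against sham, limma called 0 of the 76 genes immediately after exposure, 4 genes after 4 h and 3 genes after 24 h, beside 0.127%, 3.31% and 4.82% of all tested probes, so these counts lay near the rates of the array. At 4 h Sds was 1.32 ± 0.34 higher (adjusted p = 0.0372), Trib3 0.41 higher (adjusted p = 0.0145) and Myc 0.27 higher (adjusted p = 0.0174), and Aldh4a1, which completes proline breakdown, fell by 0.24 (adjusted p = 0.0141). Asparaginase, Aspg, was 1.09 ± 0.19 higher at 24 h (adjusted p = 0.00418), Gcsh of the glycine cleavage system was 0.21 higher (adjusted p = 0.0353) and Atf5 was 0.23 higher (adjusted p = 0.0328). Atf4 differed by 0.23 at 4 h and by 0.09 at 24 h (adjusted p = 0.233 and 0.668). The sublists with 0 called genes against sham at all 3 times were the folate cycle and its carriers, the purine steps and the methionine cycle.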

How the data were processed

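RNA of TM3 cells (24 samples) was labelled with Cy3 and hybridised by the authors to one-colour mouse arrays. Per the labels, scans were read with Agilent Feature Extraction 12.0. The deposited scanner text gives processed intensities, background-subtracted but unscaled. A series-wide table of log2 values, shifted by the authors to the 75th percentile and centred per probe, served as an alternative. Spots marked not uniform or outlying were left out, spots of a probe averaged (59305 spots, 56605 probes, 0 saturated), and log2 values taken minus the 75th percentile of the array. Tests covered each probe that 2 or more of the 4 arrays in a group read as well above background. Means of the 6 groups were fitted with limma 3.58.1 under R 4.3.3, with Benjamini-Hochberg adjustment over 37684 probes and a threshold of 0.05. The procedure was tested on simulated data. The precision is limited by 4 arrays per group, and p-values measure the spread between these arrays.

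The 10 genes and the lists of pathway genes and markers were chosen with earlier results of these data known. Named beside them were, from the pathway list, the 2 called genes that rose and fell most in sham cells at each time and up to 4 called in each direction against sham, and the genes with the highest correlation to a member. A gene that this rule names is not reported here. Myc, Mycn, Nfe2l2, Cebpg, Ddit3 and Atf4 were named after their values were seen, and Slc46a1 and Trp53 are also named outside the rule. Probe annotation gave 61.1% of probes a symbol. The alternatives were quantile and spike-in scaling, another percentile, normexp with an offset of 50, a floor, other filters, marked spots, centring by row and signal, plain analysis of variance, gene means, the deposited log2 values, the replicate number as a block, array weights, only the arrays compared, and leaving out arrays. An uncalled difference counts as unchanged while it stays uncalled. By the study's methods the treatments of a biological replicate came from 1 cell suspension, but the labels do not tie the replicate numbers to it. Deviations of same-numbered arrays correlated weakly, from -0.065 to 0.10. In 19 of 36 comparisons, though, an array correlated best with its own number, against 9 if the numbers meant nothing. These values did not settle whether the numbers pair the arrays, so the block was kept as an alternative.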

Additional observations from a re-analysis of the deposited data

Results flagged for a closer look

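In 7 of 96 groups of 4 arrays (16 probes in 6 groups), 1 array stood apart from the other 3 by Dixon's criterion, and chance flags about 1 in 20 groups. On the brighter Psat1 probe E0 replicate 2 was at 5.70, below the others at 5.84 to 5.86. On the dimmer Psat1 probe S0 replicate 2 was at 1.15 (others 1.35 to 1.38) and E4 replicate 1 at 2.09 (others 1.95 to 1.97). E4 replicate 1 was highest on the brighter Shmt2 probe (5.06, others 5.00), and E4 replicate 2 on the dimmer one (-1.45, others -1.99 to -1.92). On the brighter Mthfd2 probe E0 replicate 1 was at 2.87 (others 2.95 to 2.96). The dimmer Aldh1l2 probe was at 0.24 on S4 replicate 4, the brightest array, and at 0.62 to 0.65 on the others of S4.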

How the results depend on the processing

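Each called difference was counted once under every setting, so these counts are of recomputations and not of separate differences. Of 1039 recomputations under the processing alternatives, 935 kept direction and call, 86 lost the call and 18 turned. Among 1988 recomputations of the same called differences with arrays left out, 1880 kept both, 108 lost the call and 0 turned. Quantile normalization turned the brighter Shmt2 probe from 4 h to 24 h, to 0.081 in sham and 0.14 in nsPEF-exposed cells. Spike-in scaling added a shift common to all probes: the median of all tested probes became 0.66 for S24 against S0, 0.62 for S24 against S4, 0.50 for E24 against E0 and 0.37 for E24 against E4, with 24548 of 25016 calls higher for S24 against S0 (6368 of 13785 otherwise), 21084 of 23394 for S24 against S4 (10459 of 21743), 18745 of 19758 for E24 against E0 (9015 of 15917) and 14883 of 18175 for E24 against E4 (10371 of 21318). Under it S24 stood against S0 at 0.48 for Phgdh, 0.58 and 0.63 for the brighter and dimmer Psat1 probes, 0.36 for Psph, 0.57 for Shmt2, 0.56 and 0.60 for Mthfd2, 0.11 and 0.27 for Aldh1l2 and 0.16 and 0.33 for Asns. Against S4 it stood at 0.39 for Phgdh, 0.13 for Psat1, 0.11 for Psph, 0.45 for Shmt2, 0.27 for the dimmer Mthfd2 probe, 0.53 for Mthfd1l, 0.40 for Pycr1 and 0.031 and 0.10 for Asns. In nsPEF-exposed cells Asns was at 0.25 on both probes for E24 against E0, and Shmt1 at 0.07 and 0.017 for E24 against E4.

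Counts of genes called moved as follows. With spike-in scaling they were 4 for S4 against S0, 5 for S24 against S4 (all higher: Phgdh, Shmt2, Mthfd1l, Aldh1l2 and Pycr1, where 8 were lower otherwise), 5 for E4 against E0, 1 for E24 against E4 (Mthfd1l, higher), 0 for E24 against S24 and 0 for the mean over times. For nsPEF against sham at 4 h, 1 gene was called (0 otherwise) with quantile normalization, the percentile over probes detected everywhere, the floor and no filter, where 5.91%, 2.85%, 17.6% and 18.2% of all tested probes were called. At 24 h (2 otherwise) the count was 4 with that percentile (4.95% of all tested probes), 0 with normexp (1.54%), 5 with the floor (15.7%), 1 with marked spots kept (6.22%), 4 with gene means (7.59% of genes), 1 with the deposited log2 values (6.29%), 5 with array weights (18.7%) and 0 with only the arrays compared (0.0716%). That percentile gave 5 for S24 against S4. For the mean over times (1 otherwise) it was 2 with quantile normalization, that percentile, no filter, plain analysis of variance and array weights, 3 with the floor, and 0 with the stricter filter, centring by row and signal and gene means. For the mean over times the share of all tested probes called ranged from 2.68% to 28%. Array weights gave 3 for the interaction at 24 h (9.91% of all tested probes) and 3 for the joint F test, and gene means 1 for the change from 4 h to 24 h and 1 for the joint F test. Leaving out arrays gave 0 to 4 genes for E24 against S24 (4 without E24 replicate 1), 0 to 2 for the mean over times, 0 to 1 for E4 against S4, and, without E24 replicate 1, 2 for the interaction at 24 h and 1 for that from 4 h. Quantile normalization made 366 of 2226 calls at 4 h and 796 of 2699 at 24 h higher in nsPEF-exposed cells, against 643 of 1247 and 994 of 1815, and spike-in scaling 508 of 520 and 127 of 155. Over all processing alternatives the probes called for nsPEF against sham ranged from 0 to 432 at 0 h (48 otherwise), 352 to 10286 at 4 h and 27 to 8900 at 24 h, so the background shares given beside these counts depend on the setting. The cause of these shifts was not tested. With the replicate number as a block, 10 genes were called for time, 2 for E24 against S24 and 5 for E24 against E0, where Shmt2 lost its call (0.11, adjusted p = 0.0644), and the dimmer Shmt1 probe lost its call for E24 against S24 (0.29, adjusted p = 0.0509). In 19 of 36 comparisons an array correlated best with its own number, where 9 would do so if the numbers meant nothing.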
